A study of Mus musculus with 38 samples.

Results

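The retinas of newborn mice lacking Crb2 from retinal progenitor cells (conditional knockout, cKO) were compared with control retinas at postnatal day 0 (P0). All P0 samples were taken by their age and genotype labels: 10 of the 38 retinas and 5 of the 19 arrays, with 5 retinas in each group. Control retinas had the genotype Crb2F/+ / Chx10Cre+/- and cKO retinas Crb2F/F / Chx10Cre+/-, so both carry the Cre transgene and both carry at least 1 floxed Crb2 allele. The mice were backcrossed onto C57BL/6J and carried neither the rd8 allele of Crb1 nor the retinal degeneration allele of Pde6b. The Cre transgene is active in retinal progenitors in a mosaic pattern, so a cKO retina also holds cells that kept Crb2. RNA came from the neural retina of single eyes, with the pigment epithelium removed and without pooling. The study used 2-colour Agilent mouse arrays on control and cKO retinas at P0, P3, P6 and P10 to follow a progressive retinal disorder, and each array held 1 control and 1 cKO retina of the same age. The P0 comparison asks what separates the genotypes on the day of birth, the first age sampled.

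Crb2 belongs to the Crumbs family of transmembrane proteins, which sit at the apical side of epithelial cells just above the adherens junctions and hold Pals1 (gene Mpp5) and Patj (gene Inadl) there. In the retina these junctions form the outer limiting membrane, first between progenitor cells and later between photoreceptors and Müller glia. The newborn mouse retina still holds dividing progenitors, has made its ganglion, horizontal, cone and many amacrine cells, and is producing rods, whereas most bipolar cells and Müller glia are born in the following days.

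On arrays 1 and 2 the control retina was labelled with Cy3 and the cKO retina with Cy5, and on arrays 3, 4 and 5 the dyes were the other way round. Arrays 1 to 4 shared a slide and array 5 lay on another, which holds too few retinas for a value of its own. Before background correction, the Cy3 channels had median intensities from 140 to 167 and the Cy5 channels from 244 to 313. In each retina 69.3% to 75.7% of features were well above background. The number of arrays limits the precision. A probe is called measured here when it was well above background in at least 5 of the 10 retinas, which left 28385 of 39283 probes. Values are log2 intensities after background correction and quantile normalisation, and a log2 fold change is cKO minus control from a limma fit in which each array is a block and the dye a covariate.

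At birth the cKO and control retinas were close to each other over the whole transcriptome. The limma fit found 0 of 39283 probes past an adjusted p of 0.05 (0%), with a lowest adjusted p of 1.00. The same model gave 1214 of all 39283 probes with an unadjusted p below 0.05, and 308 of the 28385 measured ones. The methods' t-test also found 0 past the threshold, with 191 of the 28385 measured probes at the unadjusted level. Among the 28385 measured probes, 160 were higher in cKO retinas (0.564%) and 148 lower (0.521%) at an unadjusted p below 0.05. That count of 308 depends on single arrays, with 472 probes without replicate 1, 2281 without replicate 2 and 185 without replicate 4, and after loess normalisation 127 of such probes were higher and 180 lower. The balance of the directions moved too, with 807 higher and 1474 lower without replicate 2, and 115 and 168 without replicate 3. With all 38 retinas and the array block 387 were higher and 193 lower, in 8 groups without block and dye 81 and 21, and in the methods' t-test, also without them, 127 and 64. On 5 of 5 arrays the cKO retina was the higher one for 367 measured probes (1.29%) and the lower one for 312 (1.1%). All 5 cKO retinas lay above all 5 control retinas for 13 probes (0.0458%) and below them for 10 (0.0352%).

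The intervals say how large a difference the values of a single probe allow. They are not adjusted for the number of probes, so they do not say which difference would pass the adjusted threshold. For 27050 of the 28385 measured probes (95.3%) the 95% interval of the fold change lay within 1.5-fold in either direction. Of all measured probes 15124 had a fold change above 0 and 13261 below. The median log2 fold change was 0.0055, with a change of sign in 3 of 25 other settings, and the array's own median was below 0 on 3 of 5 arrays. The median absolute log2 fold change was 0.046 with a median standard error of 0.0816, and the 99th percentile was 0.36. Point estimates beyond 1.5-fold numbered 31, and 4 of them went beyond 1 on the log2 scale. Retinas of 1 group varied by a median SD of 0.160 in controls and 0.173 in cKO.

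Crb2 itself was read by the probe A_51_P300618 (mm9 chr2:37654440-37654499), which lies downstream of the floxed part of the gene, so its signal does not report how much of the allele was recombined. Its log2 intensity was 12.01, 12.28, 12.21, 11.99 and 12.01 in control retinas 1 to 5 and 11.77, 11.93, 11.99, 12.25 and 12.16 in cKO retinas 1 to 5. The cKO retina was the lower one on arrays 1, 2 and 3 and the higher one on arrays 4 and 5, and the groups overlap. The fitted log2 fold change was -0.11 (SE 0.0920, n = 5 arrays), and between -0.16 and -0.043 over 26 other settings of the analysis. Without the dye as covariate, the mean difference over the 5 arrays was -0.079. In a 2-sided exact sign-flip test of that mean, p was 0.562, where the smallest value possible is 0.0625. At later ages the fitted value was 0.10 at P3, -0.12 at P6 and 0.023 at P10, where one of the study's sample lists names the genotypes the other way round from the labels followed here.

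Crb1, the family member mutated in inherited human retinal dystrophies, differed between the groups by less than its standard error. Its log2 intensity was 10.01, 9.88, 9.82, 9.81 and 9.83 in control retinas 1 to 5 and 9.88, 9.99, 9.93, 9.83 and 9.84 in cKO retinas. The cKO value was the higher one on 4 of 5 arrays and the lower one on array 1, where the 2 retinas lay farthest apart. The fitted log2 fold change was 0.017 (SE 0.0705, n = 5 arrays), and it took a negative sign in 1 of 26 other settings. A second Crb1 probe gave 0.058 (SE 0.0814). Crb3, the short family member of many epithelia, was weakly expressed, with log2 intensities from 5.68 to 6.12 in controls and 5.65 to 6.33 in cKO retinas. Its log2 fold change was 0.15 (SE 0.0688), with the cKO retina higher on 3 of 5 arrays and the groups overlapping.

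The Crumbs complex list as a whole, the 3 Crb genes included, split evenly. Of 12 members, all measured, 6 were higher and 6 lower in cKO retinas, with a median log2 fold change of -0.017 beside 0.0055 over all measured probes, and 11 of the 12 intervals lay within 1.5-fold. Mpp5, the scaffold that binds the Crumbs tail, stood at 0.062 and Mpp3, a related scaffold, at -0.035. The highest member was Mpp4, a scaffold of photoreceptor terminals, at 0.26 with the cKO retina higher on 4 of 5 arrays. The list median changed sign in 3 of 27 other settings, and on arrays 1 to 5 it was -0.065, 0.024, 0.072, 0.19 and 0.0031, so 4 of 5 arrays lay on the other side of 0 from the fit.

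The Par and Scribble complexes set the apical and basolateral domains that the Crumbs complex works with. Of 15 measured members among 16, 7 were higher and 8 lower, the median was -0.0036, and 15 of 15 intervals lay within 1.5-fold. Prkci, the atypical protein kinase C of the Par complex, read 13.78, 13.83, 14.05, 13.95 and 13.97 in control retinas and 13.76, 13.75, 13.83, 13.78 and 13.85 in cKO retinas. The cKO retina lay below its control partner on 5 of 5 arrays, by a log2 fold change of -0.11 (SE 0.0628), and the groups overlap. Pard3, the scaffold of the same complex, had 0.024 (SE 0.0829).

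Adherens and tight junction genes were also near 0. All 18 members were measured, 12 were lower and 6 higher, the median was -0.026, and 17 intervals lay within 1.5-fold. The N-cadherin gene Cdh2 had a log2 fold change of -0.079 (SE 0.0899) and the alpha-catenin gene Ctnna1 -0.038 (SE 0.0712). Ctnnd1, which encodes p120-catenin, had -0.13 (SE 0.0674) with cKO below its control on 4 of 5 arrays. Jam2, a tight junction adhesion molecule, stood on the other side at 0.13 (SE 0.0643). A second, dimmer Jam2 probe gave -0.016 (SE 0.103), with the cKO retina higher on 2 of 5 arrays. The junction median changed sign in 1 of 27 other settings and that of the Par and Scribble list in 4 of 27.

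Retinal progenitor genes were expressed at high level in both groups. All 21 markers were measured, 15 were lower and 6 higher in cKO retinas, the median log2 fold change was -0.032, and all 21 intervals lay within 1.5-fold. For Ccnd1, the cyclin of the G1 phase that drives progenitor division, log2 intensity was 16.94, 17.20, 17.02, 17.10 and 17.03 in control retinas and 17.02, 16.96, 16.78, 17.10 and 16.80 in cKO retinas. The cKO retinas 3 and 5 were the lowest and the groups overlap, with a log2 fold change of -0.12 (SE 0.0827) and cKO below its control on 3 of 5 arrays, level on array 4 and above on array 1. Sfrp2, a secreted Wnt inhibitor of progenitors, had -0.14 (SE 0.126). The list differed more between arrays than in the fit: its median was 0.12, -0.011, -0.20, 0.043 and -0.14 on arrays 1 to 5, and it changed sign in 2 of 27 other settings. In whole retina, fewer cells of a type and less RNA per cell cannot be told apart, here and for each cell type that follows.

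Neurogenic precursors, the cells leaving the cycle, had a fitted median close to that of the progenitor list. On arrays 1, 3 and 5 the medians of these 2 lists lay on opposite sides of 0. Their 18 markers were all measured, 13 were lower and 5 higher, the median was -0.031, it lay between -0.059 and -0.016 over 27 other settings, and all 18 intervals lay within 1.5-fold. Atoh7, needed for ganglion cell fate, read 11.44, 11.62, 11.54, 11.84 and 11.59 in controls and 11.27, 10.97, 11.51, 11.85 and 12.22 in cKO retinas. The lowest and the highest of these 10 values both belong to cKO retinas, and the log2 fold change was -0.10 (SE 0.133). Sox11, a transcription factor of young neurons, had -0.094 (SE 0.0792). On arrays 1 and 2 the list was lower in the cKO retina (-0.18 and -0.081) and on arrays 3, 4 and 5 higher (0.074, 0.052 and 0.084), which is also how the dyes were divided.

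Genes of DNA synthesis and of mitosis lay on opposite sides of 0 by small amounts. In the S phase list 22 of 27 measured members were higher in cKO retinas (median 0.024), and in the G2 and M phase list 19 of 27 were lower (median -0.029). Each list had 27 of 27 intervals within 1.5-fold. Pcna, the sliding clamp of DNA polymerase, had a log2 fold change of 0.071 (SE 0.0940), and Dscc1, a clamp-loading factor, 0.25 (SE 0.120) with the cKO retina higher on 4 of 5 arrays. Over 26 other settings Dscc1 ran from 0.042 to 0.42. Its lowest value was 9.56 in control retina 1, and the next lowest was 10.17 in control retina 2. Cdc20, an activator of the anaphase-promoting complex, was lower on 5 of 5 arrays at -0.11 (SE 0.0689). Its control retinas read 14.44, 14.39, 14.58, 14.47 and 14.44 and its cKO retinas 14.39, 14.35, 14.36, 14.21 and 14.40, with cKO retina 4 lowest and an overlap at the top of the cKO range. Mki67, the usual marker of cycling cells, had 0.0089 (SE 0.117). The S phase median was 0.25 on array 1 and -0.10 and -0.13 on arrays 2 and 3, and it changed sign in 2 of 27 other settings, while the G2 and M median did so in 1 of 27.

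Cell cycle inhibitors, cell death genes and glial stress genes had medians close to 0 too. Of the 10 inhibitors measured, 6 were lower and 4 higher with a median of -0.030, and Cdkn1b, the p27 gene, had -0.014 (SE 0.0642). Apoptosis and p53 target genes had 14 lower and 11 higher of 25 measured, a median of -0.017 and 24 intervals within 1.5-fold. Bax, the mitochondrial death effector, stood at -0.015 (SE 0.0631) and Bbc3, a p53 target also called Puma, at -0.11 (SE 0.0713). Of 12 measured genes of gliosis, 8 were higher and 4 lower with a median of 0.017. The inhibitor and apoptosis medians changed sign in 3 of 27 other settings each and the gliosis median in 2 of 27, and the apoptosis median was above 0 on 3 of 5 arrays. Gfap, the intermediate filament raised in stressed Müller glia, read 6.92, 6.63, 6.60, 6.73 and 6.52 in controls and 7.12, 6.78, 6.31, 8.46 and 5.49 in cKO retinas. Control retinas sat close together, and cKO retinas 4 and 5 were the highest and the lowest of the 10, so the log2 fold change of 0.16 had an SE of 0.387.

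**Figure D1:**
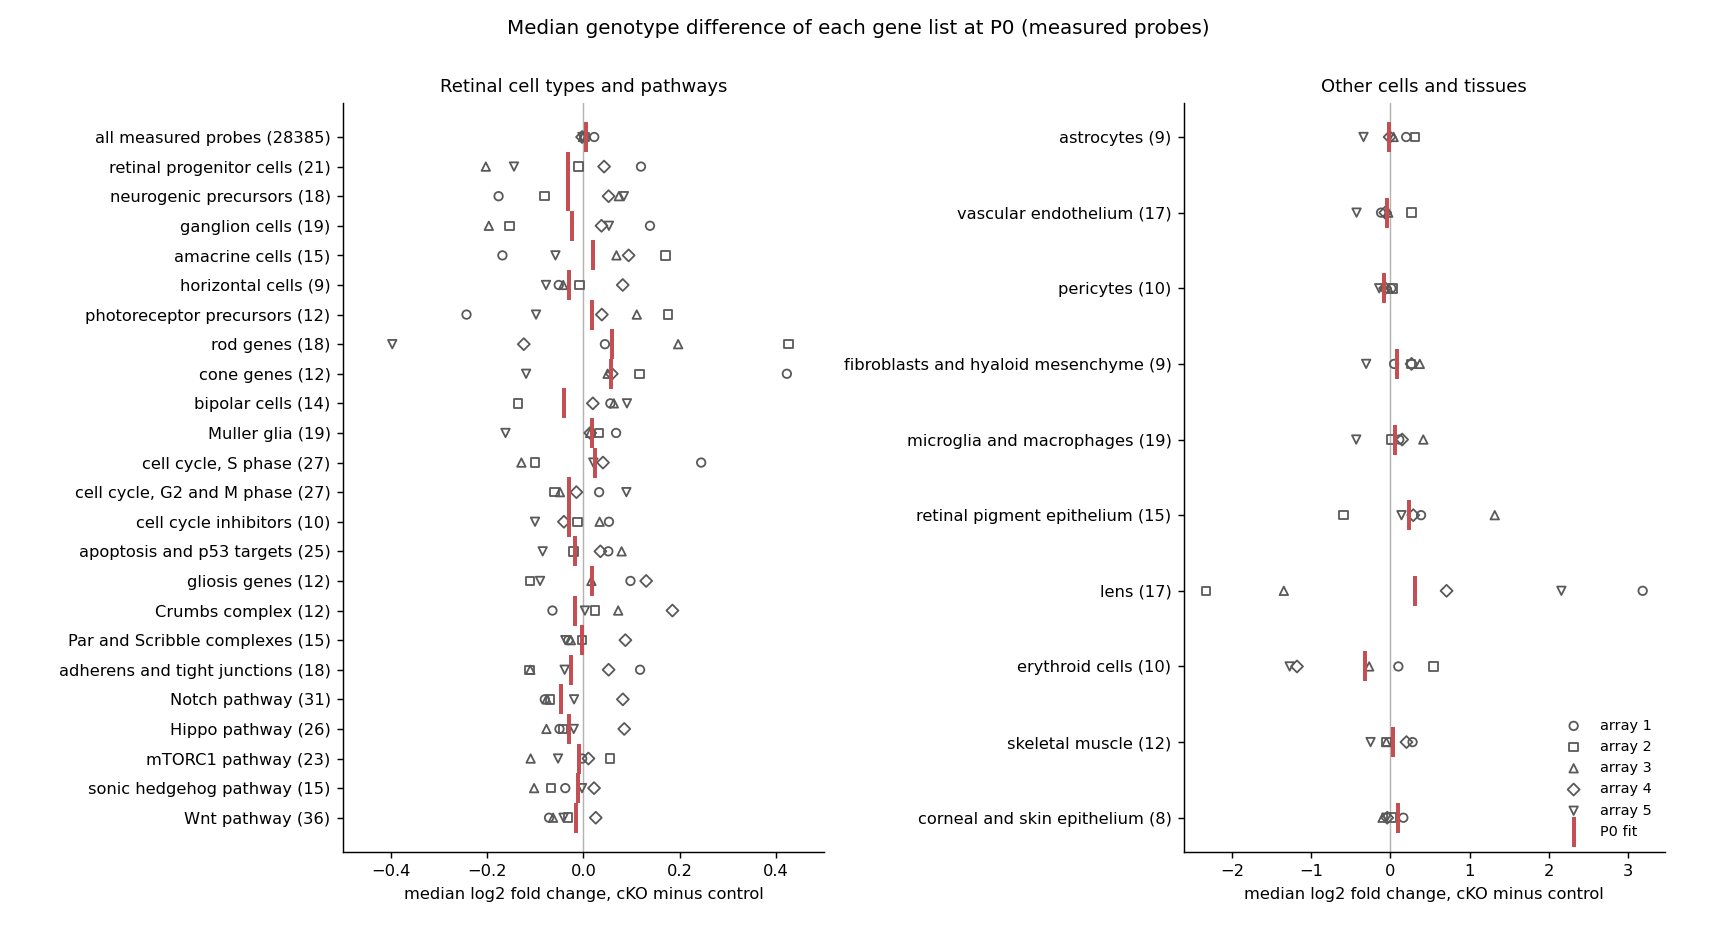
Median log2 fold change (cKO minus control) of the measured probes of each list at P0, with the number of measured probes in brackets, for retinal cell types and pathways (left) and other cells and tissues (right). Open symbols are the 5 arrays and red bars the fit: on the left the fitted medians lie between -0.046 for the Notch pathway and 0.060 for rod genes, on the right the lens list spreads from -2.33 on array 2 to 3.18 on array 1.

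Among the early-born neurons, ganglion cell genes had 13 of 19 measured members lower and 6 higher in cKO retinas, with a median of -0.024 and all 19 intervals within 1.5-fold. Pou4f2, a transcription factor of ganglion cell differentiation, read 12.36, 12.51, 12.53, 12.34 and 12.37 in controls and 12.37, 12.06, 12.32, 12.40 and 12.65 in cKO retinas. The cKO retinas spread on both sides of the controls, and the log2 fold change was -0.084 (SE 0.109). Nefl, a neurofilament of their axons, had 0.10 (SE 0.0754). On single arrays the ganglion cell median ran from -0.20 on array 3 to 0.14 on array 1 and was above 0 on 3 of 5 arrays, and it changed sign in 2 of 27 other settings.

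Amacrine cell genes, 15 measured of 17, were higher for 10 and lower for 5, with a median of 0.020. Barhl2, a factor of amacrine subtypes, was well above background in 0 of 10 retinas. Gad2, which makes the transmitter GABA, had a log2 fold change of 0.023 (SE 0.0806), and Ptf1a, the factor that commits precursors to amacrine and horizontal fates, -0.14 (SE 0.110). Horizontal cell genes, 9 measured of 10, were lower for 7 and higher for 2, with a median of -0.029. Lhx1, a horizontal cell factor, had -0.029 (SE 0.0780). Every interval of the amacrine list (15 of 15) and of the horizontal list (9 of 9) lay within 1.5-fold, and each median changed sign in 2 of 27 other settings.

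Photoreceptor genes were slightly above 0 in the fit and uneven between arrays. Of 12 photoreceptor precursor genes, 8 were higher and 4 lower, with a median of 0.017 and 11 intervals within 1.5-fold. Otx2, the factor that commits cells to the photoreceptor and bipolar lineage, had a log2 fold change of 0.12 (SE 0.102), and Crx, its partner in photoreceptor gene expression, 0.027 (SE 0.124). Rod genes, 18 measured of 19, were higher for 11 and lower for 7 with a median of 0.060, and 13 of the 18 intervals lay within 1.5-fold. For Nrl, the factor that sets the rod fate, log2 intensity was 14.30, 14.10, 14.25, 14.18 and 14.22 in controls and 14.32, 14.72, 14.44, 14.02 and 13.72 in cKO retinas. Control retinas differed little, whereas cKO retina 2 was the highest and cKO retina 5 the lowest of the 10, and the fold change was 0.084 (SE 0.137). Nr2e3, which keeps cone genes off in rods, followed Nrl across the cKO retinas, with 12.39, 12.73, 12.29, 12.22 and 11.67. The rod median was 0.045, 0.43, 0.20, -0.12 and -0.40 on arrays 1 to 5, so arrays 2 and 5 lay on opposite sides by about the same amount, and it changed sign in 2 of 27 other settings, as did the precursor median.

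Cone genes were higher for 9 and lower for 3 of 12 measured, out of 13, with a median of 0.058 and 9 intervals within 1.5-fold. The median ran from 0.0067 to 0.20 over 27 other settings, and on single arrays from 0.42 on array 1 to -0.12 on array 5. Pde6h, the inhibitory subunit of the cone phosphodiesterase, read 11.99, 11.86, 11.80, 11.97 and 12.25 in controls and 12.50, 12.52, 12.41, 12.18 and 11.99 in cKO retinas. The cKO retina was the higher one on arrays 1 to 4 and the lower one on array 5, and the log2 fold change was 0.39 (SE 0.132), between 0.28 and 0.53 over 26 other settings and short of the adjusted threshold. Opn1sw, the short-wavelength cone opsin, stood on the other side at -0.20 (SE 0.0869), with cKO below its control on 4 of 5 arrays. Arr3, the cone arrestin, had 0.12 (SE 0.219), with control retina 5 highest among controls at 8.40 and cKO retina 5 lowest of all at 7.37.

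Of the late-born cell types, bipolar cells had 14 of 17 marker genes measured, and Grm6, the glutamate receptor of ON bipolar cells, was well above background in 0 of 10 retinas, as was Scgn. Of the 14, 8 were lower and 6 higher, with a fitted median of -0.040 and 12 intervals within 1.5-fold, although on 4 of 5 arrays the array's own median was above 0. Without replicate 2 the bipolar median was 0.070, and it changed sign in 7 of 27 other settings. Tacr3, a tachykinin receptor of OFF bipolar cells, read 6.39, 7.02, 6.72, 6.54 and 7.04 in controls and 6.81, 7.42, 6.74, 6.66 and 7.06 in cKO retinas. It was higher in the cKO retina on 5 of 5 arrays by 0.23 (SE 0.0631), by little on arrays 3 and 5, and the groups overlap. Irx6, a bipolar transcription factor, was -0.18 (SE 0.0742), lower on 4 of 5 arrays.

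Müller glia share many genes with progenitors, and all 19 of their markers were measured. There 10 were higher and 9 lower, with a median of 0.017, 18 intervals within 1.5-fold and a change of sign in 9 of 27 other settings. Glul, glutamine synthetase, had a log2 fold change of -0.042 (SE 0.0647) and Rlbp1, the visual cycle carrier CRALBP, 0.028 (SE 0.142). Clu, which encodes the chaperone clusterin, read 11.17, 11.30, 11.11, 11.41 and 11.43 in controls and 11.63, 11.22, 11.89, 11.58 and 11.57 in cKO retinas. Apart from cKO retina 2 the cKO values lay above all controls, and the fold change was 0.28 (SE 0.134), higher on 4 of 5 arrays.

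Notch signalling keeps progenitors dividing and is 1 of the pathways that Crumbs proteins have been tied to in other epithelia. All 31 members were measured, and 24 were lower and 7 higher in cKO retinas, with a median of -0.046 that stayed between -0.056 and -0.024 over 27 other settings. Each of the 31 intervals lay within 1.5-fold, and on arrays 1 to 5 the list median was -0.080, -0.069, -0.077, 0.082 and -0.020. Notch1, the main receptor of the retina, had a log2 fold change of -0.049 (SE 0.0714), and Notch3, a receptor of mural cells, -0.17 (SE 0.0942). The target genes Hes1 and Hes5, which repress neuronal differentiation, had -0.071 (SE 0.119) and -0.078 (SE 0.0957), and Numb, an antagonist of the receptors, 0.067 (SE 0.0803).

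Of the other signalling lists, the Hippo pathway, which restrains tissue growth, had 17 of 26 measured members lower and 9 higher with a median of -0.029, which ran from -0.052 to -0.012 over 27 other settings. Yap1, its transcriptional effector, read 12.47, 12.62, 12.82, 12.74 and 12.86 in controls and 12.77, 12.49, 12.56, 12.72 and 12.57 in cKO retinas. The cKO retina was lower on arrays 2 to 5 and higher on array 1, with a fold change of -0.050 (SE 0.0925). Among mTORC1 pathway genes 14 of 23 were lower and 9 higher with a median of -0.0089, and the kinase gene Mtor had 0.012 (SE 0.0698). The sonic hedgehog pathway had 9 of 15 lower and 6 higher with a median of -0.010, and its receptor and target gene Ptch1 stood at 0.054 (SE 0.131). In the Wnt pathway 20 of 36 measured members were lower and 16 higher with a median of -0.016, from -0.041 to -0.0092 over 27 other settings, and Ctnnb1, its beta-catenin effector, had 0.0030 (SE 0.0644). Myc, a target of that pathway and of others, had -0.17 (SE 0.0697). The mTORC1 median changed sign in 3 of 27 other settings and the hedgehog median in 1 of 27, and 26 of 26 Hippo, 22 of 23 mTORC1, 15 of 15 hedgehog and 36 of 36 Wnt intervals lay within 1.5-fold.

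Lens, pigment epithelium and erythroid genes differed more between single retinas than any list of retinal cell types. Of 21 lens genes 17 were measured, all 17 were higher in cKO retinas, the median log2 fold change was 0.31, and only 2 intervals lay within 1.5-fold. Summed over the list, the intensity was 10498, 25035, 12480, 3865 and 12549 in control retinas 1 to 5 and 80388, 4835, 5089, 6085 and 51446 in cKO retinas 1 to 5. The cKO retinas 1 and 5 were thus far above the other 8, and cKO retinas 2, 3 and 4 were below 4 of the 5 controls. The brightest probe was that of Cryaa, an alpha-crystallin, with 23.0% of the sum, while the lens fibre genes Lgsn and Dnase2b were well above background in 0 of 10 retinas. Cryaa ran in log2 intensity from 8.33 to 12.77 in controls and from 9.51 to 14.58 in cKO retinas, with a fold change of 0.31 (SE 0.997). The list median ran from -2.33 to 3.18 over the arrays, and over 27 other settings from -1.31 to 1.88 with 2 changes of sign. Of the 20 probes that varied most among the 10 retinas 13 were lens genes. With lens level as a covariate, a setting chosen after seeing the data, 0 probes passed the adjusted limma threshold, and 176 measured probes were higher and 164 lower at the unadjusted level. The part of lens in single genes was not tested.

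Erythroid genes lay on the other side of 0. Of 16 genes 10 were measured, 8 were lower and 2 higher in cKO retinas, and the median was -0.32, between -0.47 and -0.20 over 27 other settings. Their summed intensity was 21069, 15704, 19123, 61414 and 81455 in control retinas and 23204, 28220, 13388, 10942 and 15725 in cKO retinas. Control retinas 4 and 5 stood above the other 8, and the remaining values of both groups overlap. Hba-a2, an alpha-globin gene, gave 49.4% of the sum, and the erythrocyte genes Hba-x, Epb4.2, Rhag and Spna1 were well above background in 0 of 10 retinas. For Hba-a1, the other adult alpha-globin gene, the log2 fold change was -0.78 (SE 0.339), with cKO below its control on 3 of 5 arrays.

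Pigment epithelium genes, from the layer that was dissected off, were measured for 15 of 17, with 12 higher and 3 lower, a median of 0.23 and 7 intervals within 1.5-fold. Their summed intensity was 13313, 13548, 11957, 15699 and 16254 in controls and 21371, 7724, 25562, 19668 and 18440 in cKO retinas. Apart from cKO retina 2, which was lowest of the 10, the cKO retinas lay above all controls. Rrh, which encodes the opsin peropsin, gave 27.9% of the sum, and the defining genes Best1 and Lrat were well above background in 0 of 10 retinas. Rpe65, the isomerase of the visual cycle, was well above background in 7 of 10 and had a fold change of -0.074 (SE 0.0722), with cKO below its control on 4 of 5 arrays. Tyr, the melanin synthesis enzyme tyrosinase, read 8.09, 7.81, 7.77, 7.95 and 7.84 in controls and 8.48, 7.72, 8.30, 8.21 and 7.98 in cKO retinas, with a fold change of 0.23 (SE 0.103) with the cKO retina higher on 4 of 5 arrays. The part of red cells and of pigment epithelium in other results was not tested, and the pigment epithelium median changed sign in 2 of 27 other settings.

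**Figure D2:**
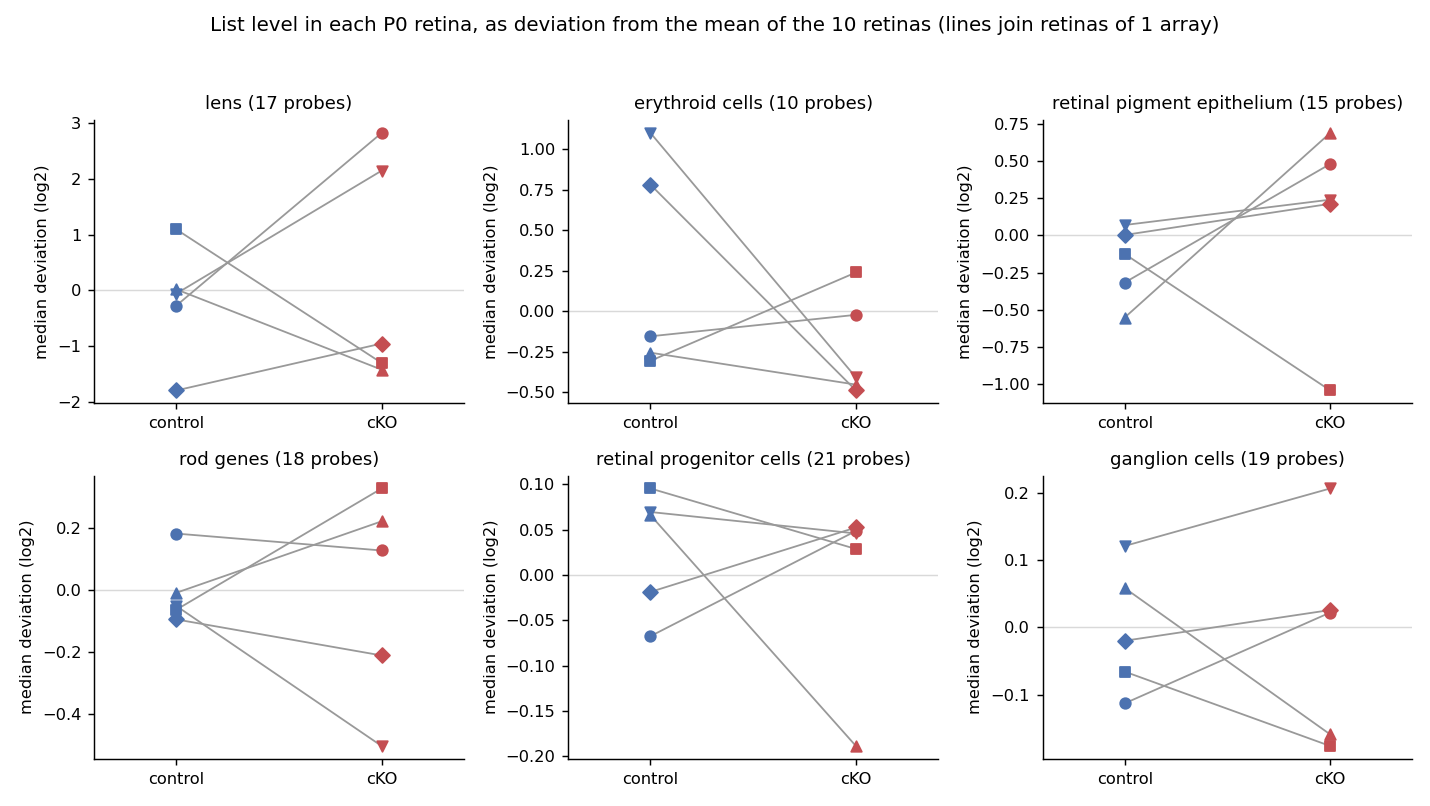
Level of 6 gene lists in each P0 retina, as the median deviation of their probes from the mean of the 10 retinas on the log2 scale, with lines joining the retinas of 1 array. Lens genes reach 2.83 in cKO retina 1 and 2.15 in cKO retina 5, erythroid genes 0.78 and 1.10 in control retinas 4 and 5, and the progenitor and ganglion cell lists stay between -0.19 and 0.21.

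Vessels, glia of the optic nerve, connective tissue and immune cells showed no common direction. Endothelial genes, 17 measured of 22, were lower for 10 and higher for 7 with a median of -0.039 and a change of sign in 4 of 27 other settings. Sox17, an endothelial transcription factor, read 6.28, 6.26, 5.93, 6.22 and 6.39 in controls and 6.14, 6.18, 5.88, 5.66 and 5.77 in cKO retinas. The cKO retina lay below its control partner on 5 of 5 arrays by a fold change of -0.26 (SE 0.103), with overlapping groups, whereas Pecam1, a general endothelial marker, had 0.026 (SE 0.0654). Pericyte genes, 10 measured of 11, were lower for 7 and higher for 3, and their median of -0.084 became 0.052 without replicate 5 and -0.16 without replicate 2, with a change of sign in 2 of 27 other settings. Tagln, a smooth muscle protein, was lower on 5 of 5 arrays at -0.17 (SE 0.0738). Astrocyte genes, 9 of 9 measured, had 5 lower and 4 higher with a median of -0.016 that changed sign in 7 of 27 other settings and was above 0 on 3 of 5 arrays.

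Fibroblast and hyaloid genes, 9 measured of 15, were higher for 8 and lower for 1 with a median of 0.077. That median ran from 0.0088 to 0.23 over 27 other settings and was above 0 on arrays 1 to 4 and -0.31 on array 5. Col1a1, a chain of type I collagen, read 6.70, 7.03, 7.17, 7.92 and 7.57 in controls and 7.25, 7.94, 8.03, 7.59 and 7.65 in cKO retinas, with a fold change of 0.47 (SE 0.179) with the cKO retina higher on 4 of 5 arrays and overlapping groups. Microglia and macrophage genes, 19 measured of 22, had 13 higher and 6 lower, a median of 0.060 and 12 intervals within 1.5-fold. Csf1r, the growth factor receptor these cells depend on, stood at -0.022 (SE 0.0813), and Tyrobp, a signalling adaptor, at 0.20 (SE 0.163). The microglial median was 0.41 on array 3 and -0.43 on array 5, and it changed sign in 1 of 27 other settings.

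Summed over each of these lists, intensity ranged from 22706 to 27800 in controls and 22213 to 27551 in cKO retinas for endothelium, with Kdr the brightest probe. For pericytes the sums were 3095 to 3246 and 2512 to 3273 (Notch3; Des at background), for astrocytes 31662 to 39367 and 27480 to 45051 (Fabp7). For fibroblasts they were 6348 to 7932 and 6689 to 9129 (Col6a1; Postn and Twist1 at background), and for microglia 32148 to 45657 and 27526 to 47712 (Itgam). The mean log2 difference of the sums, cKO minus control, was opposite in sign to the list median for astrocytes (0.071) and microglia (-0.17), as it was among retinal cell types for horizontal cells (0.030) and Müller glia (-0.025). Single probes gave most of some sums, with Fabp7 at 92.75% for astrocytes, Itgam at 71.0% for microglia and Tpm3 at 86.3% for horizontal cells. In each of the 5 lists of other cells summed here the ranges of the groups overlap, and the part of these cells in other results was not tested.

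Skeletal muscle genes, 12 measured of 13, were higher for 10 and lower for 2 with a median of 0.037, and corneal and skin epithelium genes, 8 measured of 10, higher for 6 and lower for 2 with a median of 0.094. The muscle median changed sign in 3 of 27 other settings and that of epithelium ran from 0.046 to 0.12, but on single arrays each was below 0 on 3 of 5. The mean log2 difference of the summed intensity was 0.019 for muscle and -0.065 for epithelium, the latter opposite in sign to its median. Muscle sums ran from 1558 to 1874 in controls and 1562 to 2004 in cKO retinas with Myh3, an embryonic myosin, as the brightest probe, and epithelial sums from 4788 to 5576 and 4428 to 5366 with Trp63 as the brightest and Krt13 and Dsg3 at background. Their part was not tested.

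Sex-linked transcripts set control retina 5 and cKO retina 3 apart from the other 8. Ddx3y, a Y-linked helicase gene, read 10.60, 10.97, 10.86, 10.67 and 5.28 in controls and 10.98, 10.98, 5.18, 10.65 and 10.94 in cKO retinas. In Xist, the RNA of the inactive X chromosome, the same retinas were the high ones, at 8.50 and 8.05, while the other 8 lay between 4.76 and 6.33. Both groups thus held 1 retina of this kind, and the list's median fold change over 5 genes was 0.016, with a change of sign in 11 of 26 other settings.

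Genes that respond to handling were checked as well. Immediate early genes, 15 measured of 19, were lower for 11 and higher for 4 with a median of -0.057, which ran from -0.12 without replicate 1 to -0.033 over 27 other settings. Ier2, a fast-induced transcription regulator, read 8.96, 8.86, 9.05, 8.85 and 8.93 in controls and 8.95, 8.63, 8.90, 8.59 and 8.92 in cKO retinas. It was lower on 5 of 5 arrays, by little on arrays 1 and 5 and by more on the others, and the fold change was -0.13 (SE 0.0753). Heat shock genes, 9 measured of 10, were higher for 6 and lower for 3 with a median of 0.016, which changed sign in 2 of 27 other settings.

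Maturation of the control retina gives a scale for these differences. The 200 measured probes with the lowest p for an upward step from P3 to P6 in controls had a median step of 1.65 on the log2 scale, and of 0.70 from P0 to P3. At P0, 144 of these 200 were higher in cKO retinas and 56 lower, with a median genotype difference of 0.059 that stayed between 0.016 and 0.10 over 28 other settings, beside 15124 higher and 13261 lower of all measured probes. On arrays 1 to 5 the median of this list was 0.074, 0.13, 0.12, -0.013 and -0.097, so cKO retinas 4 and 5 lay below their control partners. At the unadjusted level 5 of the 200 were higher and 1 lower, beside 0.564% and 0.521% of all measured probes, and 182 intervals lay within 1.5-fold, beside 95.3% of all. The 200 with the lowest p for a downward step, a median of -2.19 from P3 to P6 and -0.29 from P0 to P3, had 97 higher and 103 lower in cKO retinas with a median of -0.0051, and it changed sign in 5 of 28 other settings.

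**Figure D3:**
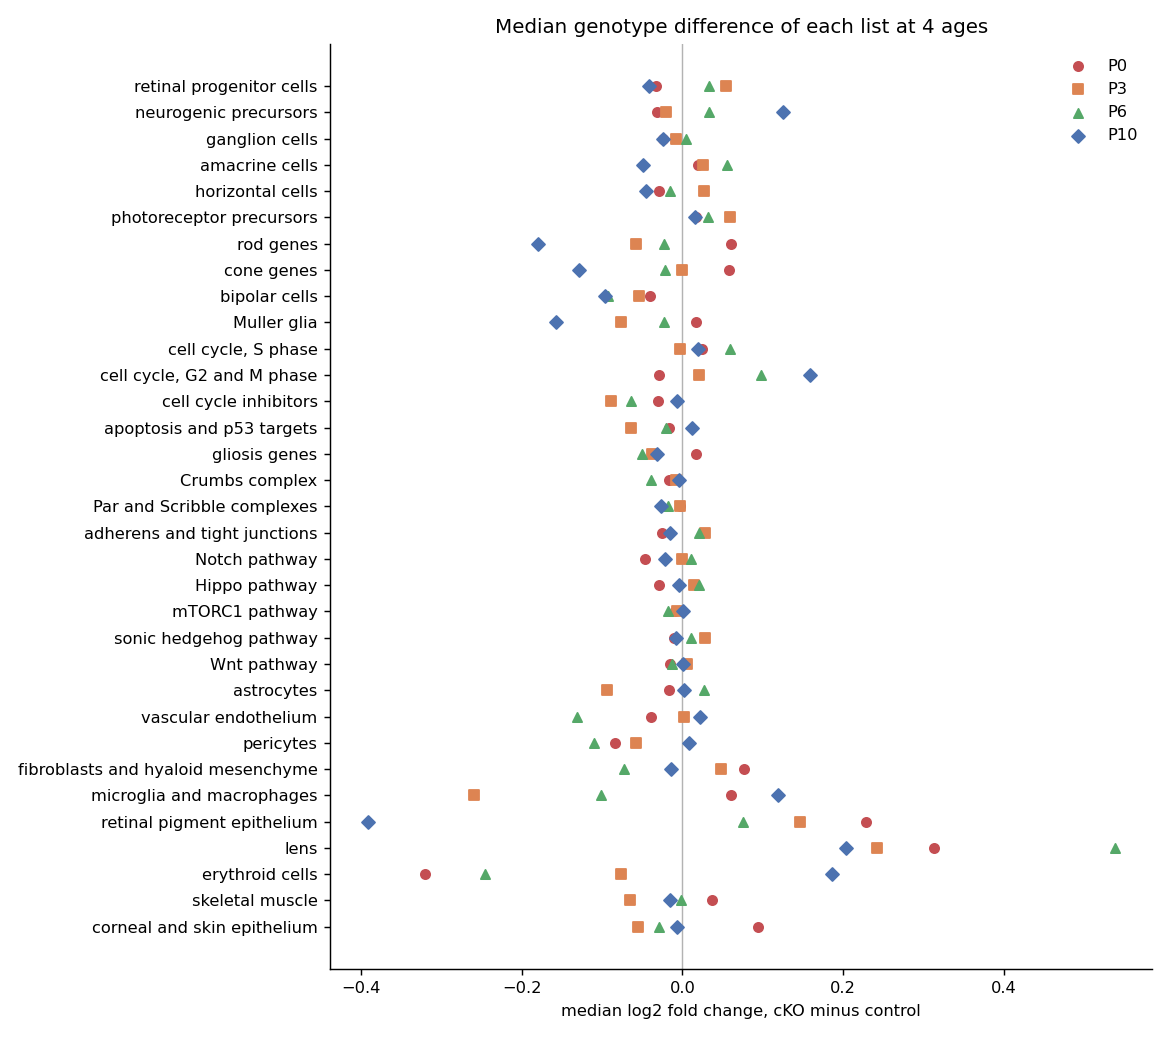
Median log2 fold change (cKO minus control) of each list, with a symbol for each age from P0 to P10 and no retina shared between ages. P0 medians of retinal cell types lie between -0.040 and 0.060, and P10 follows the sample labels, which one of the study's sample lists reverses.

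The genotype difference at P0 was also tested against the mean of the later ages. In the limma fit over 19 arrays 0 of 39283 probes (0%) had a P0 difference that departed from the mean of P3, P6 and P10 past the adjusted threshold, with 2598 at an unadjusted p below 0.05 and a lowest adjusted p of 0.324. Without P0 replicate 5, 1 probe passed that threshold, a probe of the galactosyltransferase gene B3galt5. Its departure was 0.57 with an adjusted limma p of 0.0154 without that replicate and 0.46 with an adjusted p of 0.487 with all retinas. Since the genotypes at P10 are given both ways, the contrast was also run, after seeing the data, without P10 and with its genotypes turned round: 0 probes passed either time, with 2195 and 1433 at an unadjusted p below 0.05. The B3galt5 departure was then 0.46 (adjusted limma p 0.858) and 0.37 (0.999).

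Among probes well above background in all 10 retinas that differed the same way on 5 of 5 arrays, the 8 highest and 8 lowest were taken as the extremes. Slc15a2, a peptide transporter, headed the higher side with 10.06, 10.87, 6.21, 11.26 and 10.72 in controls and 11.37, 11.64, 11.16, 12.05 and 11.38 in cKO retinas. Control retina 3 was far below the other 9, and the fold change of 1.59 (SE 0.656) ranged from 0.88 to 1.96 over 26 other settings. The other higher extremes ran from Bfsp2, a lens beaded filament gene, at 0.48 (SE 0.172) and Trub2, a pseudouridine synthase gene, at 0.47 (SE 0.106) to Gsta3, Pgam2, Nmnat3 and Itgb3bp, a centromere protein gene, between 0.30 and 0.35. Bfsp2 ranged from 0.18 to 0.63 over 26 other settings. It read 9.21 and 9.24 in cKO retinas 1 and 5, which had the highest lens sums, and 8.47 to 8.77 in cKO retinas 2, 3 and 4. Over the other settings the folds of Gsta3, Pgam2, Nmnat3 and Itgb3bp lay between 0.15 and 0.51. The brighter Itgb3bp probe, A_55_P2098539, gave 0.14 (SE 0.113) with the cKO retina higher on 2 of 5 arrays. On the lower side stood Gm2586, C630004L07Rik, 1700084K02Rik and B020031M17Rik, between -0.46 and -0.40, and Tlx1, a homeobox gene, at -0.32 (SE 0.120). Over the other settings Gm2586 ran from -0.695 to -0.225 and B020031M17Rik from -0.624 to -0.169. C630004L07Rik ran from -0.607 to -0.253, 1700084K02Rik from -0.59 to -0.26 and Tlx1 from -0.41 to -0.21. The 5 probes with the lowest unadjusted p, among them probes of Mtf1, Capn3 and Kprp, were well above background in 0 of 10 retinas, so no fold is given for them. Of the 16 extremes 5 lie on chromosome 2, which carries Crb2 and 8.11% of the measured probes.

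The chromosome 2 extremes are the probe A_55_P2144651, Trub2, Gm3058, Cercam and the probe NAP060965-1. Trub2, by the probe A_55_P1981147, read 8.28, 8.64, 8.69, 8.60 and 8.98 in controls and 9.21, 9.23, 8.70, 9.11 and 9.03 in cKO retinas, above all controls except on array 3. The brighter Trub2 probe, A_51_P104933, gave a smaller fold change of 0.27 (SE 0.0733) with the cKO retina higher on 4 of 5 arrays. Gm3058, a predicted gene, read 9.01, 8.93, 8.92, 8.97 and 8.78 in controls and 8.67, 8.21, 8.52, 8.53 and 8.51 in cKO retinas. Its groups do not overlap, and the fold change was -0.45 (SE 0.0832). For Cercam, an endothelial adhesion gene, controls read 6.69, 7.31, 7.05, 6.80 and 7.15 and cKO retinas 6.32, 6.73, 6.57, 6.65 and 6.71. The cKO retinas 2 and 5 were just above control retina 1, and the fold change was -0.41 (SE 0.0832). At P3 and P6 the fits gave 0.36 and 0.29 for Trub2 by A_55_P1981147, -0.59 and -0.49 for Gm3058, and -0.52 and -0.38 for Cercam. By the sample labels, those at P10 were 0.25, -0.020 and -0.10 in that order.

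A_55_P2144651, for which the files name no gene, lies at mm9 chr2:37647702-37647761 on the plus strand, 6.74 kb before the Crb2 probe, and is shown because it is the extreme nearest to Crb2. Whether it lies in an exon of Crb2 was not determined.
A_55_P2144651: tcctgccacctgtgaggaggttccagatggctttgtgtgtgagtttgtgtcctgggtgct
Its log2 intensity was 7.21, 6.87, 7.18, 7.07 and 6.99 in controls and 7.79, 6.94, 7.59, 7.66 and 7.33 in cKO retinas. All cKO retinas except cKO retina 2 lay above all controls, and the log2 fold change was 0.39 (SE 0.0967), between 0.26 and 0.52 over 26 other settings. The fits at P3 and P6 gave 0.17 and 0.34, and that at P10, by the sample labels, 0.0016. At P0 the Crb2 probe on the same chromosome stood at -0.11.

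NAP060965-1 (A_55_P2150452) lies far from Crb2, at mm9 chr2:149158832-149158891 on the minus strand, and is shown because it has the lowest fold change of the extremes.
NAP060965-1: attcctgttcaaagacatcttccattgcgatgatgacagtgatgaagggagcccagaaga
Controls read 8.03, 7.86, 7.81, 7.65 and 7.65 and cKO retinas 7.36, 7.34, 7.52, 7.13 and 7.33, so the groups do not overlap. The log2 fold change was -0.49 (SE 0.0725), and the fits at P3 and P6 gave -0.54 and -0.39. At P10 the fit by the sample labels gave -0.15.

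**Figure D4:**
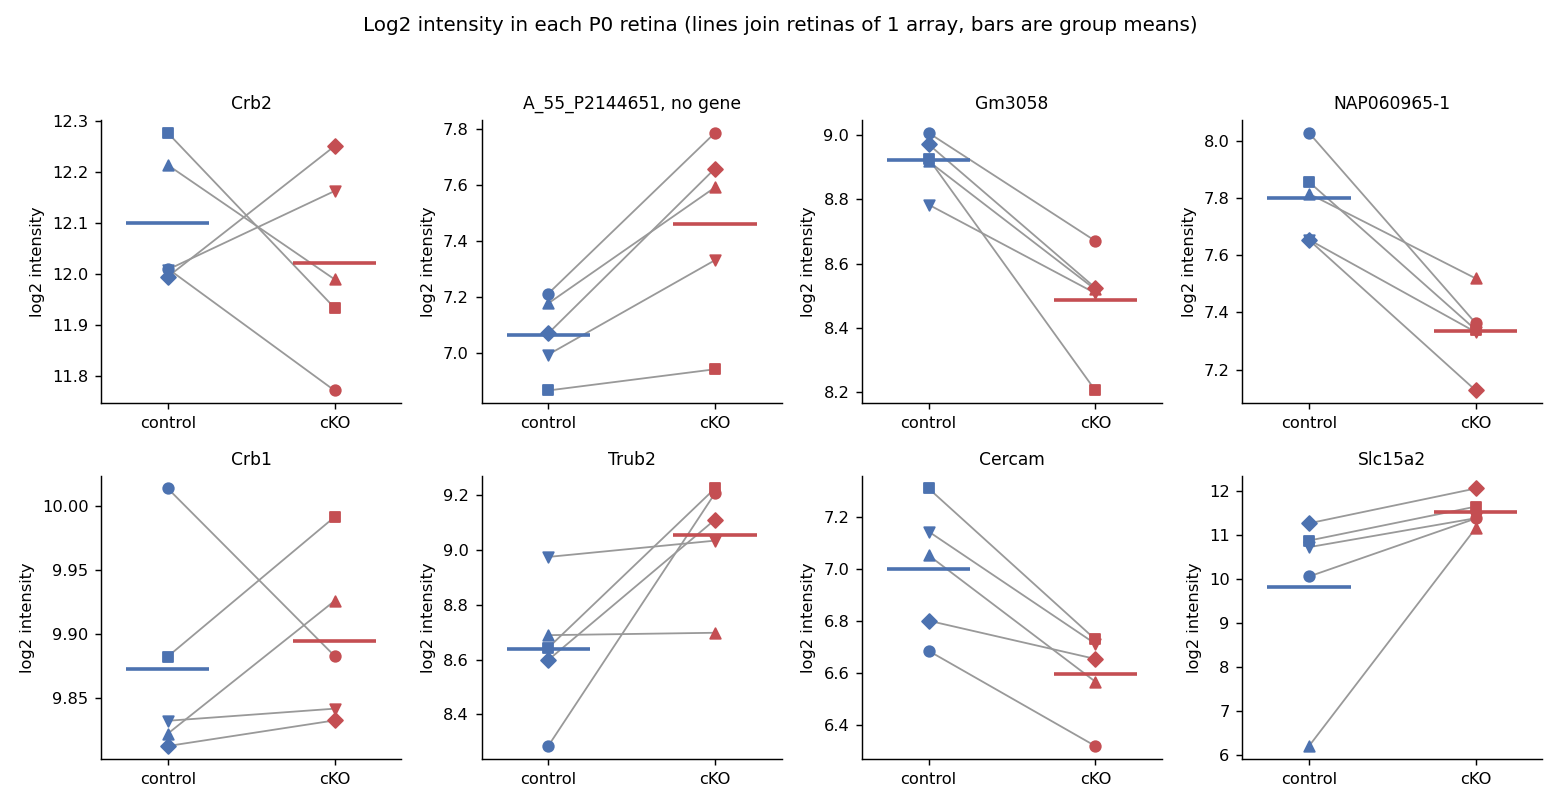
Log2 intensity of 8 probes in each P0 retina, with lines joining the retinas of 1 array and bars at the group means. Gm3058 and NAP060965-1 are lower in 5 of 5 cKO retinas without overlap, Slc15a2 is at 6.21 in control retina 3 and above 10 in the other 9, and Crb2 and Crb1 overlap between the groups.

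The surroundings of Crb2 were divided into windows after these extremes had been seen, so the counts are a description. Within 1 Mb of the Crb2 probe, the probes that differed the same way on 5 of 5 arrays were 4 of 28 measured probes (14.3%), within 5 Mb 9 of 105 (8.57%), within 10 Mb 15 of 272 (5.51%) and within 20 Mb 21 of 525 (4.00%), beside 679 of 28385 (2.39%) over all measured probes. These windows contain each other, and A_55_P2144651 and Gm3058 are among the 4 in the smallest. Of the 4, 2 were higher and 2 lower in cKO retinas, and of the 21 within 20 Mb 10 and 11. The median absolute log2 fold change was 0.059 within 1 Mb and 0.047, 0.045 and 0.046 within 5, 10 and 20 Mb, beside 0.046 over all measured probes.

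**Figure D5:**
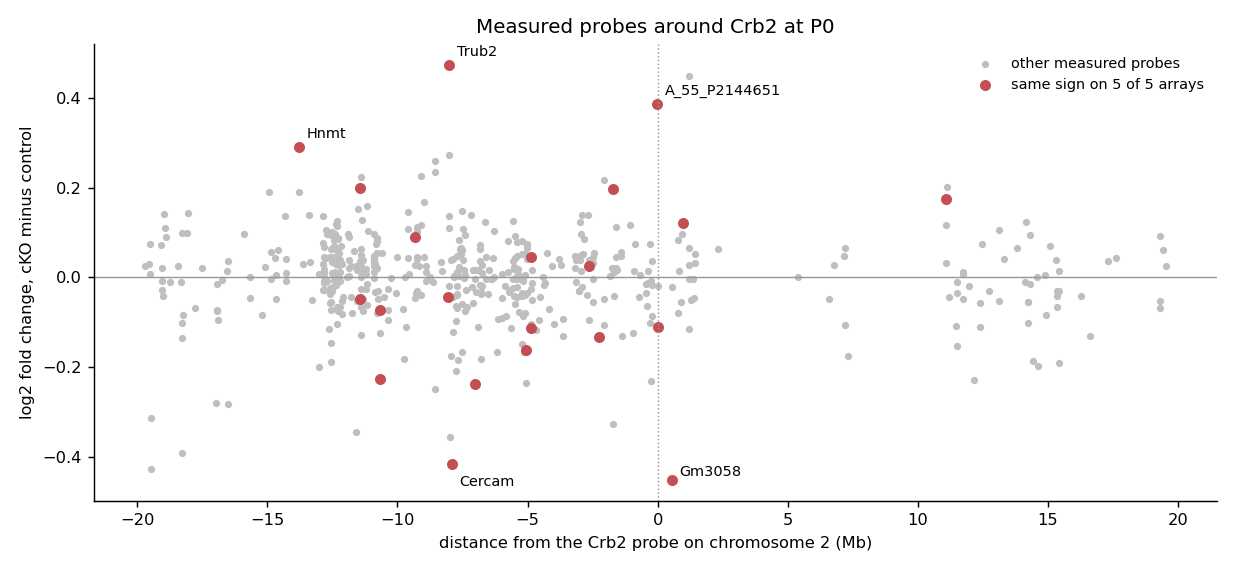
Log2 fold change at P0 (cKO minus control) of the 525 measured probes within 20 Mb of the Crb2 probe, by distance in Mb, with the 21 that differed the same way on 5 of 5 arrays in red. Trub2 (0.47), A_55_P2144651 (0.39), Hnmt (0.29), Cercam (-0.41) and Gm3058 (-0.45) are named.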

How the data were processed

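Agilent 2-colour arrays of single mouse retinas were read from the scanner files, where the authors deposited intensity values per feature and channel as written by Feature Extraction, and probe positions in mm9. The log2 values deposited by the authors are normexp background-corrected and quantile-normalised in limma and served as an alternative, while their p-value and fold or ratio columns and 28 other columns per sample were not used. Of 44397 features an array, 1377 control spots and 158 saturated or outlying features were dropped, which left 42862 features and 39283 probes. The limma fit (limma 3.58.1 and statmod 1.5.0 in R 4.3.3, files read with data.table, version 1.17.8) used normexp with offset 0, quantile normalisation over 38 channels, and at P0 genotype, dye and the array as a replicate block, with Benjamini-Hochberg adjustment over all probes. Pairing follows from the array that carries both retinas; residuals of the 2 retinas of 1 array correlated by 0.150 to 0.512 and those of different arrays by a median of -0.0446, and 10 of 10 retinas were closest to their array partner.

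The lists, 36 of cell types, tissues, handling and pathways with 627 genes (569 measured) plus the maturation genes, were chosen with earlier results of these data known. A list member is read by its brightest probe, an extreme by the probe that qualified. Named are the Crb genes, the first 2 members of each list, each list's measured member with the lowest p on each side, the 8 highest and 8 lowest folds among probes well above background in 10 of 10 retinas with 1 sign on 5 of 5 arrays, and the 5 lowest p; some genes of the lists are not reported here. Other genes (Mpp3, Mpp4, Mpp5, Hes1, Hes5, Ddx3y, Xist, Barhl2, Scgn, Hnmt, LOC100047738, B3galt5, and the brightest or unmeasured members of tissue lists) were named after their values were seen. Alternatives changed the block, dye, normalisation, background offset, filters, covariates and test, left out each replicate, and used smaller and larger maturation lists.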

Additional observations from a re-analysis of the deposited data

Results flagged for a closer look

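In 23 of the 362 groups of 5 retinas examined (the lists and the named genes, in controls and in cKO retinas), 1 retina lay far from the other 4 of its group. Chance gives this in about 1 in 20 groups. Each value is given with no explanation, and the part of any cause was not tested.

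On the scale of median deviation from the mean of the 10 retinas (log2), the retinas apart were control retina 5 (-1.976) and cKO retina 3 (-1.931) in the sex-linked list and cKO retina 2 (-1.042) in the pigment epithelium list. In cKO retina 3 the progenitor list stood at -0.1885, and in control retina 1 the photoreceptor precursor list at 0.1756 and the list falling from P3 to P6 at -0.09091. Smaller departures were control retina 4 in the hedgehog list (-0.1058), cKO retina 5 in the G2 and M phase list (0.07623) and cKO retina 1 over all measured probes (0.0177).

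In log2 intensity, control retina 5 was apart for Arr3 (8.396), Tnni1 (8.421) and Uty (4.179), and cKO retina 3 for Uty (4.834) and Kdm5d (3.514). For cKO retina 1 it was Lhx1 (7.855), Tmem119 (7.115) and Pgam2 (6.779), and for cKO retina 2 Tyrp1 (7.855) and Bbc3 (11.76). Single genes stood apart in cKO retina 4 (Cdc20, 14.21), control retina 1 (Gja1, 8.11), control retina 2 (1700084K02Rik, 6.358) and control retina 3 (Slc15a2, 6.213).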

How the results depend on the processing

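No probe passed the adjusted threshold at P0 in the limma fit or under any of its 25 alternatives, and the block changed no other call. The number of measured probes with an unadjusted p below 0.05, 308 with the array as replicate block and dye, was 183 with the replicate block without dye, 102 without the block, 79 without block and dye, 143 with the slide as block, 102 with all 38 retinas in 8 groups without block and dye, 580 with all 38 retinas and the replicate block, 489 with offset 50, 566 with processed signals, 79 with the deposited log2 values without block and dye, 465 over measured probes alone and 191 with the methods' t-test, which has neither. Leaving out 1 replicate gave 185 to 2281. For the P0 difference minus that of later ages, probes with an unadjusted p below 0.05 were counted over all 39283 probes, measured or not. There 2598 became 550 in 8 groups without block and dye and 754 without the block but with dye. The count was 1534 with the replicate block without dye and 1433 with the P10 genotypes turned round. When a P0 replicate was left out, 0 to 1 probes passed the adjusted threshold. In each case the cause was not tested.

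Of the list medians, the bipolar list ran from -0.02115 to 0.07003, pericytes from -0.162 to 0.05151 and immediate early genes from -0.1203 to -0.0333 when a replicate was left out. With arrays 2, 3 and 4 alone, a setting chosen after seeing the data like the lens covariate, the later-age fits that dropped only the block or only the dye and both P10 settings, pericytes had 0.03728 and immediate early genes -0.1177. Of 1052 list medians under alternatives 6 moved by more than the spread between arrays and 93 changed sign, and of 3767 values of named genes 7 and 177 did. Probes near background and 5 arrays limit the precision.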

Other observations

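Single arrays differed in how many measured probes separated their 2 retinas by more than 1 on the log2 scale. There were 647 on array 1, 65 on array 2, 195 on array 3, 107 on array 4 and 204 on array 5, of which 14, 12, 11, 6 and 13 were lens genes. On array 1 the cKO retina was the lower one for 522 of them, and on array 5 the higher one for 139. The dye had no probe past the adjusted threshold (0 in the limma fit) and a median absolute effect of 0.084 on the log2 scale, larger than the median absolute genotype difference of 0.046.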
